A study of Homo sapiens with 6 samples.

Results

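SGK1, the serum- and glucocorticoid-inducible kinase 1, was examined in A549 cells together with 9 further genes of glucocorticoid hormone signalling, namely the receptor NR3C1, the cortisol-inactivating enzyme HSD11B2, and FKBP5, TSC22D3, ZFP36, PER1, KLF9, CEBPD and SCNN1A. The members were the rows of the gene count table carrying these 10 names, 10 of 58735 genes in all, and all 10 had enough counts to be tested. They were selected on earlier results of these same 6 libraries, among them the values of this comparison, so their differences between the groups are given as a description, without a p-value.

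The samples were A549, an established human lung adenocarcinoma line, grown in RPMI1640 with 10% FBS. One group of 3 libraries came from cells made to overexpress IL17D, a secreted cytokine of the interleukin 17 family, and the other 3 came from cells that received the empty vector. Both groups carried a lentiviral vector with a human PGK promoter and an IRES-GFP cassette, and total RNA was taken with TRIzol. No steroid was named among the treatments, and the sources used here did not state whether each library had its own transduction or culture, so the spread between them may be technical.

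Glucocorticoids such as cortisol bind the receptor NR3C1, which is held in the cytoplasm by heat shock protein 90 and its co-chaperones, moves to the nucleus and acts at response elements in DNA. Its targets include feedback inhibitors (FKBP5), anti-inflammatory proteins (TSC22D3, ZFP36, DUSP1), a clock gene (PER1), transcription factors (KLF9, CEBPD) and, in epithelia, the kinase SGK1 and the sodium channel subunit SCNN1A. Lung epithelial cells, A549 among them, are widely used to study this response, and several of the same genes also answer to serum, stress and growth factor signals.

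SGK1 was 1.32-fold higher in the IL17D-expressing cells, SCNN1A was lower by a log2 fold change of -0.70 and KLF9 by one of -0.29. FKBP5 was slightly below the empty-vector libraries, and the libraries of the other 6 members overlapped between the groups. Among the 15754 tested genes, the rule applied to every gene (an adjusted p under 0.05 in the edgeR quasi-likelihood test) put 1 member, SGK1, with those called higher and 1, SCNN1A, with those called lower, which for genes chosen on this comparison is a count and not a test. Of all tested genes, 0.673% (106) were called higher and 0.908% (143) lower. By the libraries themselves, 1 member had all 3 IL17D-expressing libraries above all 3 empty-vector libraries, 3 members (SCNN1A, KLF9 and FKBP5) had all 3 below, and 6 overlapped, where 7.48% (1178) of the tested genes lay wholly above and 8.31% (1309) wholly below. Since the members were chosen from this comparison, nothing is read from these shares. In bulk RNA, fewer cells expressing a gene and less of its RNA per cell cannot be told apart.

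The libraries held between 14319398 and 16521021 counts, about 99.8% of them on tested genes. IL17D itself had 24, 18 and 34 counts in the empty-vector libraries and 31274, 32155 and 26772 in the IL17D-expressing libraries, as the labels say. The summed level of 7 lung epithelial markers was 12740 to 13250 CPM (counts per 1000000 counts, scaled by TMM, the trimmed mean of M values) in the empty-vector libraries and 12370 to 12620 in the IL17D-expressing libraries, and 1 of the 6 tested, CDH1, was called lower. Of the leukocyte markers CD3E, MS4A1 and PTPRC had no count in any library, and of the endothelial markers KDR and TEK had none. The summed levels were 0.871 to 1.11 against 0.669 to 1.34 CPM for 7 leukocyte markers, 22.7 to 25.2 against 19.6 to 24.4 for 6 fibroblast markers and 0.346 to 0.435 against 0.0701 to 0.608 for 5 endothelial markers, empty vector first. Nearly all of the fibroblast sum was COL1A1 (means 23.3 and 21 CPM), and nearly all of the epithelial sum KRT8, KRT18 and KRT7. The epithelial markers EPCAM (1.05 and 0.976 CPM) and KRT19 (0.370 and 0.415 CPM) were very low. These 6 genes were named after their values were seen.

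The starts of SGK1 are shown because the gene table adds reads from all of its transcripts into 1 value. SGK1 (ENSG00000118515, chr6:134169246-134318112, minus strand) has 30 annotated transcripts with 28 start positions in GENCODE release 29, and its exons merge into 11 blocks, whose summed length is the gene length in the table. The 250 bases before each of its 3 RefSeq starts (GRCh38.p14, minus strand, 5′ to 3′) lie at chr6:134318113-134318362, chr6:134177862-134178111 and chr6:134174867-134175116. PER1, which carries an E-box, is shown for contrast with the 250 bases at chr17:8152405-8152654, also on the minus strand. Capitals mark a motif that was found, and the 3 SGK1 windows hold none.
SGK1 start 1: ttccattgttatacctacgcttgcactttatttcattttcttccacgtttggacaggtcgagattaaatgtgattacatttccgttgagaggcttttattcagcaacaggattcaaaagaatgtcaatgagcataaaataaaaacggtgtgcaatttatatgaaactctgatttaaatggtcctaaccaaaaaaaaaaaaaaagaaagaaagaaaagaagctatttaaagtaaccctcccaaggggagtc
SGK1 start 2: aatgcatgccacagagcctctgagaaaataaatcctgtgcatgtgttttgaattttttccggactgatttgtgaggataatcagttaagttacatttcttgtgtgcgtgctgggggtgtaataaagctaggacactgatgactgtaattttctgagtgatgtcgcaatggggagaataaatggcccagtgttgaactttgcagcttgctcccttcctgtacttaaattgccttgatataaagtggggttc
SGK1 start 3: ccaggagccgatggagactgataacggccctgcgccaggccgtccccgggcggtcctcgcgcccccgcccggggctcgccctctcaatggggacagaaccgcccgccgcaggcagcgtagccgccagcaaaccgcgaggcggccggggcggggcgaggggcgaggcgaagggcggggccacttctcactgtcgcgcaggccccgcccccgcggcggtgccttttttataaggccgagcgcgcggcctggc
PER1 start 1: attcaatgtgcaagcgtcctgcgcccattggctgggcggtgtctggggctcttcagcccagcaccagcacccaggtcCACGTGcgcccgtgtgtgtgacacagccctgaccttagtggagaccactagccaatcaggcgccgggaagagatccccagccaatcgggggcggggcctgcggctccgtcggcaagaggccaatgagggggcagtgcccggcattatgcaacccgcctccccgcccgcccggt

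The 3 windows of SGK1 differed in base composition, with 33.6%, 41.6% and 76% G and C from start 1 to start 3. RefSeq windows were used for 7 of the 10 members, 19 windows in all, and each was searched on both strands for 6 motifs. SCNN1A, HSD11B2 and CEBPD were not part of this search. The full glucocorticoid response element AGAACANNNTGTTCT, its relaxed core GNACANNNTGTNC, which includes the full element, and the half-site AGAACA, which forms part of the full element, were in 0 of the 19 windows. The cyclic AMP response element TGACGTCA was in 0 as well. The E-box CACGTG, which the clock proteins CLOCK and ARNTL bind, lay at positions -173 to -168 from the PER1 start (the capitals above) and, in the FKBP5 window at chr6:35688916-35689165, at positions -227 to -222. The AP-1 site TGANTCA lay in the NR3C1 window at chr5:143434810-143435059, at positions -228 to -222.

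Among all 35116 RefSeq windows of this length, the full element was in 0.00285%, the core in 0.327%, the half-site in 12.4%, the cyclic AMP element in 1.65%, the E-box in 6.34% and the AP-1 site in 6.57%. A match is a description of letters, and the absence of a match says only that those letters are not within these 250 bases.

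NR3C1 (ENSG00000113580, chr5:143277931-143435512), the glucocorticoid receptor, had 2757, 2461 and 2928 counts in the empty-vector libraries and 2927, 2945 and 2517 in the IL17D-expressing libraries. In CPM these were 170, 170 and 182 against 178, 179 and 176. The groups overlapped, since empty-vector library 3 was above all 3 IL17D-expressing libraries, and the fitted log2 fold change was 0.03 with a standard error (SE) of 0.04.

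HSD11B2 (ENSG00000176387, chr16:67430652-67437553) encodes the enzyme that turns cortisol into inactive cortisone. It was the lowest member, with 15, 17 and 14 counts against 16, 21 and 19, and the libraries overlapped. Its log2 fold change of 0.27 had an SE of 0.38, so only a large difference could have been seen at this depth. HSD11B1, the enzyme that works in the opposite direction, had 0 counts in all 6 libraries, which allows up to 0.182 to 0.21 CPM at these depths, counting error only.

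FKBP5 (ENSG00000096060, chr6:35573585-35728583) encodes an immunophilin that lowers the affinity of the receptor for its hormone. Its CPM were 41.2, 41.5 and 40.7 in the empty-vector libraries and 40.6, 36.9 and 38.2 in the IL17D-expressing libraries. All 3 IL17D-expressing libraries were below, but the nearest pair, 40.7 and 40.6, almost met, and the log2 fold change was -0.09 (SE 0.07).

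TSC22D3 (ENSG00000157514, chrX:107713221-107777342), also called GILZ, encodes a leucine zipper protein that restrains inflammatory transcription factors. Its CPM were 33.1, 30.1 and 33 against 30.2, 29.4 and 30.6, with a log2 fold change of -0.10 (SE 0.07). The groups overlapped through empty-vector library 2, which lay among the IL17D-expressing ones. ZFP36 (ENSG00000128016, chr19:39406813-39409412), or tristetraprolin, binds AU-rich elements and hastens the decay of cytokine messages. Its CPM were 38, 34.7 and 36.1 against 37.7, 40.6 and 39.3, overlapping through the first library of each group, with a log2 fold change of 0.11 (SE 0.07).

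Of the transcription regulators, PER1 (ENSG00000179094, chr17:8140472-8156506), a repressor of the circadian clock, was at 21.7, 23.2 and 23.8 CPM against 24.7, 24 and 22.8. CEBPD (ENSG00000221869, chr8:47736909-47739086), a factor of the acute phase response, was at 64.4, 60.5 and 59.4 CPM against 61.5, 60.3 and 63.1. The libraries of both genes overlapped, with log2 fold changes of 0.06 (SE 0.08) for PER1 and 0.0038 (SE 0.06) for CEBPD, and the sign of CEBPD turned in 3 of 12 alternative analyses.

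KLF9 (ENSG00000119138, chr9:70384597-70414624), a Krüppel-like repressor that is induced by glucocorticoids in many tissues, had 104, 92 and 117 counts against 85, 97 and 76. In CPM it was at 6.40, 6.36 and 7.27 in the empty-vector libraries and 5.17, 5.90 and 5.33 in the IL17D-expressing libraries. All 3 IL17D-expressing libraries were below the others, and the log2 fold change was -0.29 (SE 0.16). It was not called by the test across all genes.

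SGK1, an AGC-family kinase that keeps sodium channels at the cell surface by restraining the ubiquitin ligase NEDD4L, had 508, 451 and 562 counts in the empty-vector libraries and 736, 695 and 586 in the IL17D-expressing libraries. In CPM these were 31.3, 31.2 and 34.9 against 44.7, 42.3 and 41.1. The lowest IL17D-expressing library was above the highest empty-vector library, and the means were 32.5 ± 2.15 and 42.7 ± 1.87 CPM (SD, n = 3 each). The fitted fold was 1.32, a log2 fold change of 0.40 (SE 0.07), and its value ranged from 0.36 to 0.45 over 12 alternative analyses of the same libraries. None of its exon sequence is shared with another annotated gene.

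SCNN1A (ENSG00000111319, chr12:6346843-6377730) encodes the alpha subunit of the epithelial sodium channel, which lets sodium in from the airway and kidney tubule lumen. It had 88, 72 and 95 counts in the empty-vector libraries and 60, 45 and 52 in the IL17D-expressing libraries, or 5.42, 4.98 and 5.91 CPM against 3.65, 2.74 and 3.64. All 3 IL17D-expressing libraries were below, with means of 5.43 ± 0.465 and 3.34 ± 0.525 CPM (SD, n = 3 each) and a log2 fold change of -0.70 (SE 0.19). It was no longer among the genes called lower with DESeq2, with limma voom or when any 1 of the 6 libraries was left out, and its log2 fold change ranged from -0.78 to -0.58.

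A further limit on SCNN1A is that 422 of its exon bases, 7.18% of the total, are shared with LTBR, a receptor gene on the opposite strand with 16193 counts over the 6 libraries. LTBR was at 180, 177 and 170 CPM in the empty-vector libraries and 169, 167 and 172 CPM in the IL17D-expressing libraries, a log2 fold change of -0.05 (SE 0.04). Per kilobase of exon, LTBR was at 28 and 27 CPM and SCNN1A at 0.925 and 0.569, empty vector first. The share of bases therefore does not give the share of reads. LTBR was looked up after the shared sequence was seen. Whether the counting used strand was not given in the sources used here, so the part that LTBR reads have in the SCNN1A counts was not tested.

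**Figure D1:**
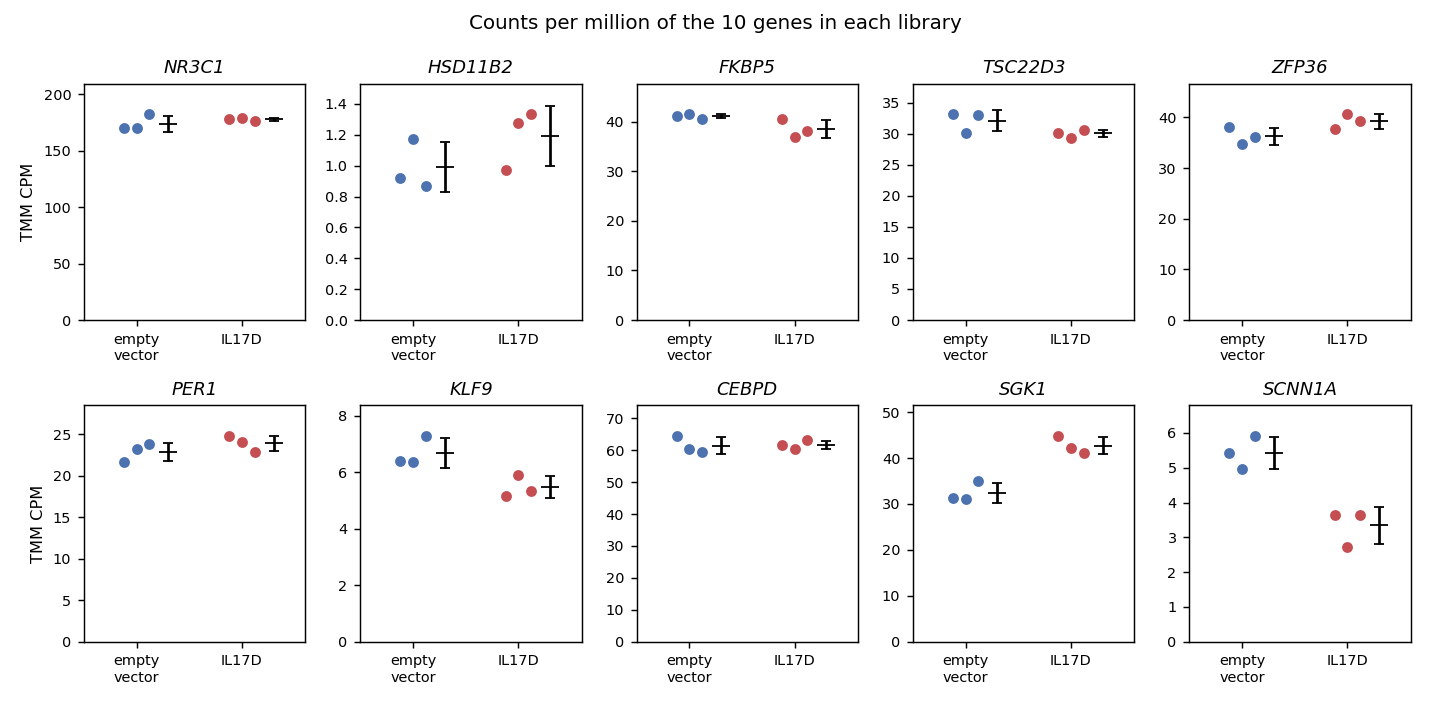
CPM scaled by TMM (vertical axis, from 0, a separate scale for each gene) of the 10 genes in the 3 empty-vector and the 3 IL17D-expressing libraries. Points are libraries and the black marks beside them are the mean and SD. SGK1 shows all 3 IL17D-expressing libraries above the others, and SCNN1A and KLF9 show all 3 below.

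**Figure D2:**
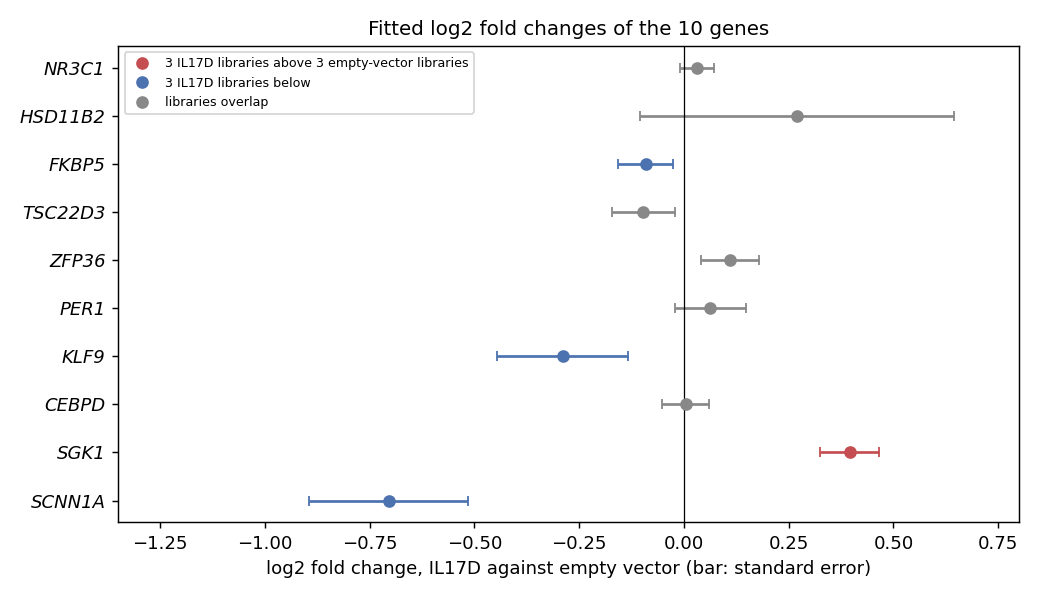
Fitted log2 fold change of each of the 10 genes, IL17D-expressing against empty-vector cells (horizontal axis), with its standard error as a bar. SGK1 lies at 0.40 and SCNN1A at -0.70, while NR3C1, FKBP5, TSC22D3, PER1 and CEBPD lie near 0 and HSD11B2 has the widest bar.

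Levels were compared between genes only after division by the exon length of the gene. That length merges all annotated exons, 9992 bases from 30 transcripts for SGK1 and 2178 from 1 for CEBPD. Which transcripts were expressed was not measured, so the order below and the family shares depend on this choice of length. In the empty-vector libraries CEBPD had the highest level, 28.2 ± 1.20 CPM per kilobase (SD, n = 3), followed by NR3C1 at 19 ± 0.766 and ZFP36 at 18.1 ± 0.83. NR3C1 and ZFP36 overlapped in their libraries. TSC22D3 came next at 6.73 ± 0.354 CPM per kilobase, then FKBP5 at 3.87 ± 0.0387, PER1 at 3.27 ± 0.155 and SGK1 at 3.25 ± 0.215, of which PER1 and SGK1 overlapped. KLF9 at 1.29 ± 0.0999, SCNN1A at 0.925 ± 0.0791 and HSD11B2 at 0.370 ± 0.0609 CPM per kilobase closed the order. The remaining 7 neighbouring pairs did not overlap in the empty-vector libraries.

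In the IL17D-expressing libraries SGK1, at 4.27 ± 0.188 CPM per kilobase, stood in place 5 of the order, above FKBP5 at 3.63 ± 0.176 and PER1 at 3.41 ± 0.137. In the empty-vector libraries it stood in place 7. ZFP36 and NR3C1 also exchanged places 2 and 3, at 19.5 ± 0.718 and 19.4 ± 0.149 CPM per kilobase, and the libraries of both genes overlapped in this group too. FKBP5 and PER1, whose libraries overlapped in this group, each stood 1 place lower than in the empty-vector libraries, and the remaining members kept their places.

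**Figure D3:**
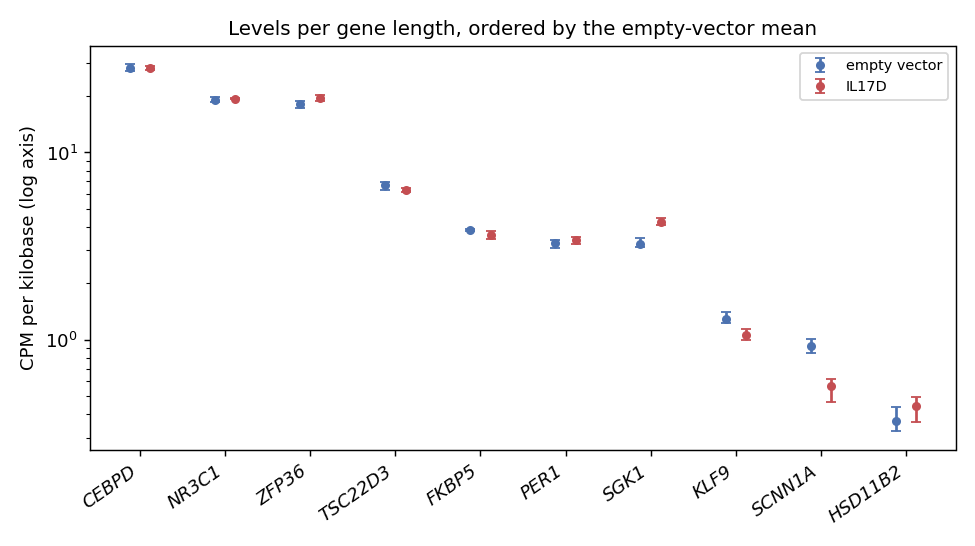
Level of each of the 10 genes in CPM per kilobase of exon (log axis), ordered by the empty-vector mean. Points are means and bars run from the lowest to the highest of 3 libraries. The levels span from 28.2 for CEBPD to 0.370 for HSD11B2 in the empty-vector cells, and the bars of the groups do not overlap for SGK1, KLF9, SCNN1A and, narrowly, FKBP5.

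Each member was then set beside its relatives. The mineralocorticoid receptor NR3C2, which binds cortisol and aldosterone and shares DNA elements with NR3C1, had 7, 8 and 11 counts against 10, 9 and 1, too few to be tested. The progesterone receptor PGR had 4 counts over the 6 libraries.

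Within the SGK kinases, SGK1 made up 46.4% ± 3.70 of the summed level per kilobase of SGK1, SGK2 and SGK3 in the empty-vector libraries and 57.9% ± 1.48 in the IL17D-expressing libraries (SD, n = 3 each), with ranges of 43.8% to 50.6% and 56.3% to 59.2% that did not overlap. This share contains the SGK1 values on which the gene was selected, so it is no separate result. SGK2 was at 14.8, 15.1 and 13.1 CPM against 11.9, 13.1 and 11.4, a log2 fold change of -0.24 (SE 0.11, edgeR adjusted p = 0.397). SGK3 was at 6.58, 6.98 and 5.78 CPM against 5.11, 4.93 and 4.77, a log2 fold change of -0.38 (SE 0.16, edgeR adjusted p = 0.328). Neither relative passed the test, although the 3 IL17D-expressing libraries of SGK3 were all below the others.

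The sodium channel was represented mainly by SCNN1D and SCNN1A. In the empty-vector libraries the delta subunit SCNN1D made up 62% ± 2.40 and SCNN1A 35.9% ± 3.19 of the summed level per kilobase, and in the IL17D-expressing libraries 68.5% ± 1.90 and 28% ± 1.88 (SD, n = 3 each). SCNN1A was selected on this comparison and its counts may include LTBR reads, so these shares are only a description. The beta subunit SCNN1B had 4, 4 and 2 counts against 4, 4 and 4, and the gamma subunit SCNN1G had 1 count over the 6 libraries. SCNN1D was at 6.65, 6.57 and 6.09 CPM against 5.90, 5.11 and 5.68, with a log2 fold change of -0.21 (SE 0.16, edgeR adjusted p = 0.679).

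For the other members the relatives were as follows. TSC22D1, a paralog of TSC22D3, was at 194, 186 and 192 CPM against 213, 225 and 218. It rose by a log2 fold change of 0.20 (SE 0.04, edgeR adjusted p = 0.00195), was called in all 12 alternative analyses and made up 54.3% of the TSC22 family level per kilobase in the empty-vector libraries, where TSC22D3 made up 16.5%. PER2 and PER3, the paralogs of PER1, had log2 fold changes of -0.07 (SE 0.07) and 0.06 (SE 0.14), neither of them called. FKBP4, the co-chaperone that competes with FKBP5 and promotes receptor transport, made up 94.3% of their joint level per kilobase in the empty-vector libraries and had a log2 fold change of 0.06 (SE 0.04, edgeR adjusted p = 0.536).

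CEBPB was the leading gene of the CEBP family at 63.2% of the level per kilobase in the empty-vector libraries, with CEBPD at 17%. ZFP36 made up 26.6% of the level per kilobase of its family there, and its relatives ZFP36L1 and ZFP36L2 made up 43.7% and 29.7%. Over the list of 22 paralogs, 17 were tested, 1 rose (TSC22D1) and 0 fell by edgeR, and the median log2 fold change was 0.02 against -0.00044 over all tested genes. Without regard to adjustment, 3 of these paralogs were higher and 3 lower at an unadjusted p under 0.05, and DESeq2 and limma voom also called 1 higher and 0 lower. The share of all tested genes at that unadjusted threshold is not given here, so nothing is read from this count.

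**Figure D4:**
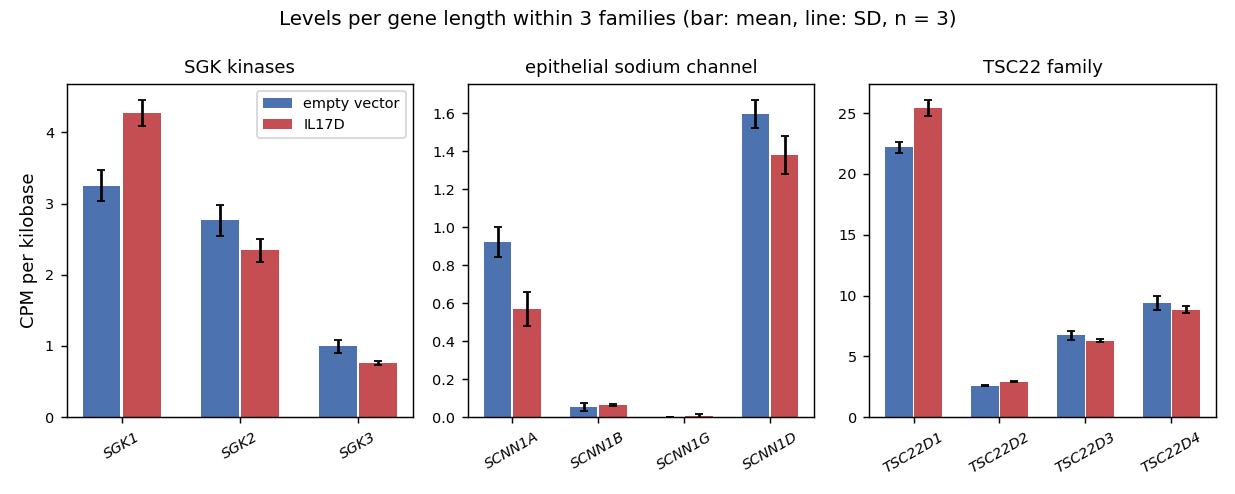
Level in CPM per kilobase (vertical axis, from 0) of the genes of 3 families in empty-vector and IL17D-expressing cells. Bars are means and lines the SD of 3 libraries. The mean of SGK1 is higher in the IL17D-expressing cells and those of SGK2 and SGK3, which did not pass the test, are lower, and only SCNN1A and SCNN1D of the sodium channel genes stand well above 0.

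Among the wider set of genes that glucocorticoids induce, calls went in both directions. Of 31 such genes beside the members, 24 were tested, 4 rose (PDK4, BIRC3, ERRFI1 and DUSP1), 2 fell (MT2A and LPIN1) and 18 did not pass. The shares called over all tested genes were 0.673% higher and 0.908% lower. Over the 24 tested genes the log2 fold changes had their median at 0.07, and 16 lay above 0 and 8 below. At an unadjusted p under 0.05, 8 were higher and 3 lower, DESeq2 called 4 higher and 1 lower, and limma voom called 5 higher and 1 lower. The shares of all tested genes at that unadjusted threshold and on each side of 0 are not given here. Nothing is read from such counts in this or the other lists. MT1X, a metallothionein named after its values were seen, had the largest log2 fold change of the list, -0.78 (SE 0.23, edgeR adjusted p = 0.0797). It did not pass the test, and its CPM of 4.62, 5.74 and 3.54 in the empty-vector libraries were all above the 2.13, 3.35 and 2.59 of the IL17D-expressing libraries.

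PDK4, a kinase that shuts off pyruvate oxidation, was at 90, 88.9 and 86.2 CPM in the empty-vector libraries and 113, 112 and 116 CPM in the IL17D-expressing libraries. It rose by a log2 fold change of 0.36 (SE 0.05, edgeR adjusted p = 2.57e-06). MT2A, a metallothionein that binds zinc and copper, was at 88.8, 82.9 and 91.5 CPM against 58.4, 65 and 65. It fell by 0.48 on the log2 scale (SE 0.05, edgeR adjusted p = 2.95e-07). PDK4 and MT2A were called in all 12 alternative analyses, with highest adjusted p of 0.000174 and 2.13e-05. The values of MT2A and MT1X were known from earlier results of these data. All 7 lists were chosen with such results known, so no call in any of them is independent evidence.

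The other 4 calls of the list were smaller, and each was lost in some of the alternative analyses. BIRC3, an inhibitor of apoptosis, rose by a log2 fold change of 0.24 (SE 0.05, edgeR adjusted p = 0.00687), a call lost without empty-vector library 1 (0.0714) or 2 (0.0646) or IL17D-expressing library 3 (0.0671). ERRFI1, a feedback inhibitor of the EGF receptor, rose by 0.14 (SE 0.04, edgeR adjusted p = 0.0333). Without empty-vector library 1 or 2 its adjusted p was 0.134 or 0.109, and without IL17D-expressing library 1, 2 or 3 it was 0.0771, 0.11 or 0.187.

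DUSP1, a phosphatase that inactivates p38 and JNK, was at 153, 161 and 163 CPM against 181, 173 and 175, and rose by a log2 fold change of 0.15 (SE 0.04, edgeR adjusted p = 0.0461). Its adjusted p was 0.0519 with DESeq2. Without empty-vector library 1 or 2 it was 0.231 or 0.0924, and without IL17D-expressing library 1, 2 or 3 it was 0.267, 0.057 or 0.144. LPIN1, a phosphatidate phosphatase, fell by 0.24 on the log2 scale (SE 0.06, edgeR adjusted p = 0.0495), a call lost in 8 of 12 alternative analyses. These were DESeq2 size factors (adjusted p 0.0518), the DESeq2 test (0.0985), limma voom (0.0567), and leaving out empty-vector library 1 (0.0536), 2 (0.253) or 3 (0.0781) or IL17D-expressing library 1 (0.306) or 3 (0.145).

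ANGPTL4, an inhibitor of lipoprotein lipase, had a log2 fold change of 0.13 (SE 0.06, edgeR adjusted p = 0.341), with all 3 IL17D-expressing libraries above. CDKN1C, a cell cycle inhibitor, was too low to be tested, with means of 0.451 ± 0.190 and 0.552 ± 0.243 CPM (SD, n = 3 each). Among the inflammatory genes that glucocorticoids lower, 8 of 19 were tested, 1 rose and 0 fell by edgeR, and the median log2 fold change was 0.04. The gene that rose was PTGS2, or cyclooxygenase 2, at 28.6, 27.7 and 27.6 CPM against 31.5, 37.2 and 34, with a log2 fold change of 0.29 (SE 0.08, edgeR adjusted p = 0.042). Its call was lost in 7 of 12 alternative analyses. These were DESeq2 (adjusted p 0.0788), limma voom (0.0513), and leaving out empty-vector library 1 (0.0823), 2 (0.129) or 3 (0.0861) or IL17D-expressing library 2 (0.268) or 3 (0.134). In this list 3 genes were higher and 0 lower at an unadjusted p under 0.05, and DESeq2 and limma voom called 0 in either direction.

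**Figure D5:**
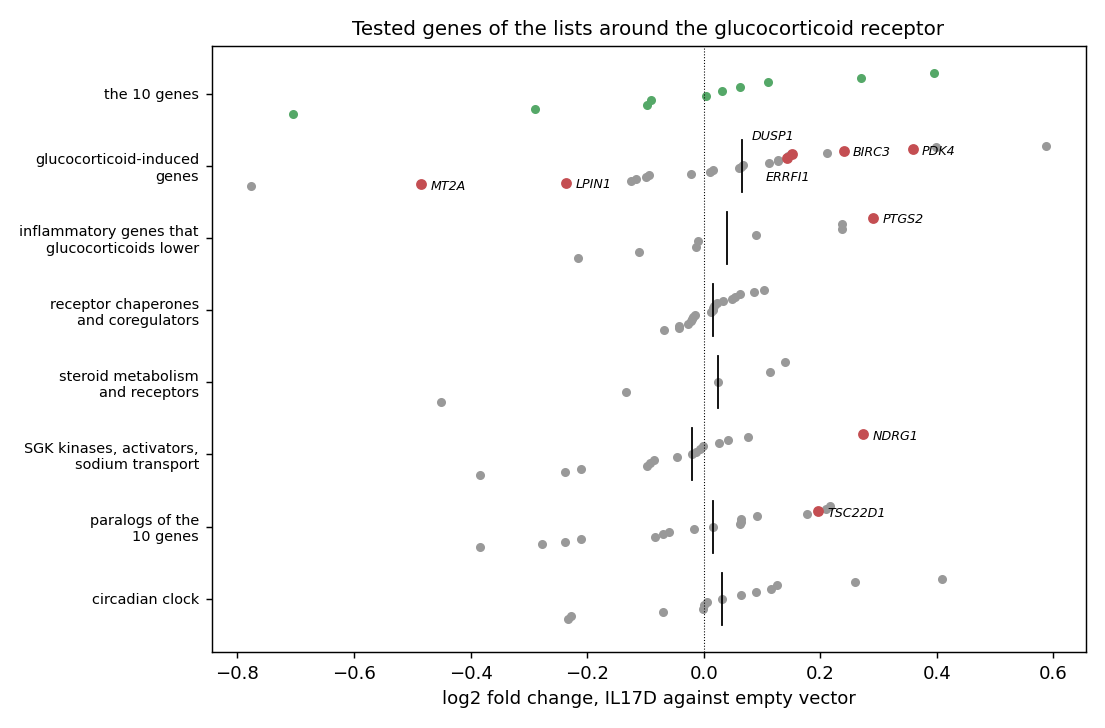
Log2 fold change (horizontal axis) of the 10 genes (green) and of the tested genes of 7 lists around the glucocorticoid receptor, 1 point per gene. Red points with names passed edgeR's test at an adjusted p under 0.05, grey points did not, and a black line marks the median of each list. The medians of the lists lie between -0.02 and 0.07, and the largest named changes are MT2A at -0.48 and PDK4 at 0.36.

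The list of 19 chaperones and coregulators was tested in full, and edgeR called 0 of them in either direction, with a lowest adjusted p of 0.286. The log2 fold changes lay between -0.07 and 0.10 with a median of 0.02. At an unadjusted p under 0.05, 2 were higher (HSPA8 and NCOA3, named after their values were seen) and 0 lower, and DESeq2 and limma voom called 0. The heat shock protein 90 genes HSP90AA1 and HSP90AB1, whose products hold the receptor ready for hormone, had means of 2693 ± 20.4 against 2727 ± 20.8 CPM and 2029 ± 24.1 against 2050.3 ± 7.15 CPM (SD, n = 3 each). Their log2 fold changes were both 0.02 (SE 0.02), and that of PTGES3, the p23 co-chaperone, was 0.01 (SE 0.03).

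Of 11 genes of steroid metabolism and steroid receptors, 5 were tested and edgeR called 0 in either direction, with a median log2 fold change of 0.02. At an unadjusted p under 0.05, 0 were higher and 2 lower in this list (CYP3A5 and H6PD, named after their values were seen), and DESeq2 and limma voom called 0. Of 18 SGK kinases, activators and sodium transport genes, 15 were tested, 1 rose and 0 fell by edgeR, with a median log2 fold change of -0.02 and 11 of the 15 below 0. DESeq2 and limma voom also called 1 higher and 0 lower there, and at an unadjusted p under 0.05 there was 1 higher and 4 lower.

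The gene that rose was NDRG1, whose protein is phosphorylated by SGK1 and serves as a readout of its activity. NDRG1 was at 67.5, 59.3 and 59.8 CPM in the empty-vector libraries and 74.5, 76 and 75.3 in the IL17D-expressing libraries, a log2 fold change of 0.27 (SE 0.06, edgeR adjusted p = 0.00362) that was called in all 12 alternative analyses. Its messenger RNA was measured here, not its phosphorylation. NEDD4L, the ubiquitin ligase that SGK1 phosphorylates, was at 66.5, 62.2 and 66.7 CPM against 61.3, 60.1 and 62.9, with a log2 fold change of -0.09 (SE 0.05, edgeR adjusted p = 0.612) and overlapping libraries.

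Of 14 clock partners of PER1, 13 were tested and edgeR called 0 in either direction, with a lowest adjusted p of 0.197 and a median log2 fold change of 0.03. At an unadjusted p under 0.05, 2 were higher (BHLHE40 and NR1D1) and 1 lower (ARNTL), all 3 named after their values were seen, and DESeq2 and limma voom called 0. Over the 7 lists together, 124 genes were listed beside the members, 94 were tested, 7 rose and 2 fell, and the median log2 fold change was 0.02. Of all tested genes, 0.673% were called higher and 0.908% lower. Since the lists were chosen with earlier results of these data known, nothing is read from their counts of calls beside these shares.

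The 3 genes whose level followed SGK1 most closely over the 6 libraries were RALA, a small GTPase, MCM4, a subunit of the replicative helicase, and BMPER, a secreted regulator of bone morphogenetic proteins. Pearson's r of their log2 CPM with that of SGK1 was 0.99 for each of the 3, over 6 libraries that fall into the 2 groups. BMPER was at 19.9, 20.2 and 22.3 CPM against 27.6, 28 and 26.8, while RALA and MCM4 had log2 fold changes of 0.11 and 0.03. These correlations are a description, chosen as the highest among all tested genes.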

How the data were processed

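RNA was sequenced from 3 empty-vector and 3 IL17D-expressing A549 libraries, grouped by their titles. The authors deposited 1 table of raw read counts per gene, with each gene's exon length (a value of another kind, in bases). Per the submitters' processing notes the reads were aligned to hg38 with Bowtie2. The counting program, its use of strand and the annotation were not given in the sources used here. All 58735 genes of the table carried the coordinates of GENCODE release 29, and 0 per-sample columns were left unused. Totals were 14319398 to 16521021 counts per library, and the biological coefficient of variation was 4.4%.

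Genes were filtered with filterByExpr (15754 kept), scaled by TMM and tested with edgeR 4.0.16 (glmQLFit and glmQLFTest, R 4.3.3), with Benjamini-Hochberg adjustment over all tested genes and a threshold of 0.05. The fit was first run on simulated data with the same variability for every gene. Its known changes were larger than those of the called genes of the lists, so it does not cover changes as small as theirs. CPM were TMM-scaled, and levels between genes were CPM per kilobase of exon, with TPM as an alternative. The alternatives were DESeq2 1.42.0 (size factors, and its Wald test), limma 3.58.1 voom, all genes with at least 1 count, genes whose lowest library had 10 or more counts, a replicate block, and the omission of 1 library at a time. Log2 CPM for correlations used a prior count of 2. Promoter windows came from RefSeq (GRCh38.p14).

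The members and lists were chosen with earlier results of these data known. Named by rule were the members, IL17D, 17 fixed genes of the pathway, the called genes of each list (at most the 6 with the smallest p) and the 3 genes most correlated with SGK1. Relatives of the members were added for their shares of family level, and other names are marked where they were chosen after their values were seen. One further gene of the rule is not reported here and was left out of the lists. P-values set the difference between the groups against a variability estimated from these libraries with the help of all tested genes. That variability may be technical.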

Additional observations from a re-analysis of the deposited data

How the results depend on the processing

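Leaving out 1 library at a time moved the counts of calls. Over all tested genes, 69 to 129 genes were called higher (106 with all libraries) and 76 to 138 lower (143), with 69 higher and 76 lower without IL17D-expressing library 3, 79 lower without IL17D-expressing library 1 and 95 lower without empty-vector library 2. Over the 7 lists, 3 to 6 genes were called higher (7 with all libraries) and 1 to 3 lower (2), with 3 higher without the first or second empty-vector library or the third IL17D-expressing library and 4 without the second IL17D-expressing library. The count of 1 lower came without empty-vector library 1 or 2 or IL17D-expressing library 1 or 3, and the count was also 1 with DESeq2 size factors, the DESeq2 test and limma voom, where the call of LPIN1 was lost. The other counts over all tested genes and over the 7 lists together stayed within 1.5 times under the other scalings, tests and filters. Within single lists, the 1 inflammatory gene called higher (PTGS2) became 0 with the DESeq2 test and with limma voom. With the replicate number as a replicate block, 115 genes were called higher and 157 lower over all tested genes and 7 higher and 3 lower over the lists. Over all tested genes at once, the deviations of same-numbered libraries from their group means had correlations of 0.00997, -0.0119 and -0.0151. Differently numbered pairs were not set beside these. Whether same-numbered libraries shared a culture or transduction was not tested. No member moved by more than 1 SD between replicates in any of the 12 alternatives. Leaving out 1 of 3 libraries can hardly move a group mean that far, so nothing on robustness is read from this. The number of neighbours without overlap in the order of levels was 7 with CPM per kilobase and with TPM. Both divide the same counts by the same gene lengths, so nothing is read from this agreement. Other gene lengths were not tried. Depth limits the low members most, since HSD11B2 rests on 14 to 21 counts per library and SCNN1A on 45 to 95, and a count of 0 allows up to 0.21 CPM. Read counts include PCR copies, and these limits cover counting error only.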
